A study of Mus musculus with 2 samples.

Results

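The genes described here encode the non-collagen part of the cardiac extracellular matrix and the enzymes that process and crosslink collagen. They are 59 genes listed by symbol, found among the 24346 gene symbols of each of 2 RNA-seq libraries of mouse heart, and all 59 had a row in both libraries. The list holds secreted glycoproteins, small and large proteoglycans, elastic fibre and basement membrane proteins, lysyl oxidases, collagen hydroxylases, chaperones and procollagen proteinases, and genes of hyaluronan.

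The libraries came from heart tissue of mice that had a high-fat diet and myocardial infarction, and both were labelled day 14, without the event from which days were counted. In 1 library the tissue had been treated with probucol, a lipid-lowering antioxidant drug, and in the other it was untreated, so diet and infarction were shared by both. The column headers of the files carry the marks HypoE and CM, which the labels do not explain and which were not interpreted, and the labels give no genotype. The sources used here do not give the strain, the part of the heart or whether animals were pooled. The values are FPKM, by definition counts of fragments divided by transcript length and by the mapped fragments of the library. They can be compared between genes because they are set per length. Whether they were also scaled between the libraries is not given. With 1 library per group there was no replicate error and no test between treatments, and each difference below describes these 2 libraries only.

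The infarcted heart replaces lost muscle with a scar laid down mainly by fibroblasts. Fibronectin, periostin, tenascin C and thrombospondins form a provisional and regulatory matrix around the cells. Small leucine-rich proteoglycans bind collagen fibrils and tune their diameter, fibrillin and fibulins carry elastin, and laminins, nidogens and perlecan build the basement membranes of muscle cells and capillaries. Collagen chains are hydroxylated and folded inside the cell, trimmed outside it and finally crosslinked by lysyl oxidases.

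Most of these genes had lower values in the probucol library, and the median difference was larger for the secreted glycoproteins than for the basement membrane. Differences are given as the log2 ratio, the base 2 logarithm of FPKM with probucol over FPKM without, with 0.5 FPKM added to both, for the 12882 genes with a mean of at least 0.5 FPKM, called measured. Of the 59 genes 56 were measured, and 22 of them were at least 1.5-fold lower with probucol, where 12.0% of all measured genes were. At least 1.5-fold higher were 2 genes, Lama5 and Has2, against 5.52% of all measured genes. Below 0 lay 47 of the 56, against 49.1% of all measured genes. The median log2 ratio of the 56 genes was -0.38, and that of all measured genes was 0.01. At least 2-fold lower were 10 genes and at least 2-fold higher 0, against 5.14% and 1.07% of all measured genes. Among the 47 genes with a mean of at least 5 FPKM, 18 were at least 1.5-fold lower, where 8.39% of all genes of that level were.

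Counting error was small for most of them. The steps between low FPKM values gave about 6.70 and 7.47 fragments per FPKM and kilobase in the probucol and the untreated library, so fragment numbers could be estimated for each gene, for 31 genes from their only transcript and for the others from the shortest of several, which understates the number. Exact 95% intervals of the FPKM ratio (Clopper-Pearson) lay wholly below 1 for 39 of the 56 measured genes, wholly above 1 for 5 and included 1 for 12. Computed in the same way for the 12313 measured genes with a fragment estimate, the interval lay wholly below 1 for 19.5% and wholly above 1 for 20.0%. All 22 genes that were at least 1.5-fold lower had an interval wholly below 1. These intervals cover counting error only and say nothing of the spread between animals.

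**Figure D1:**
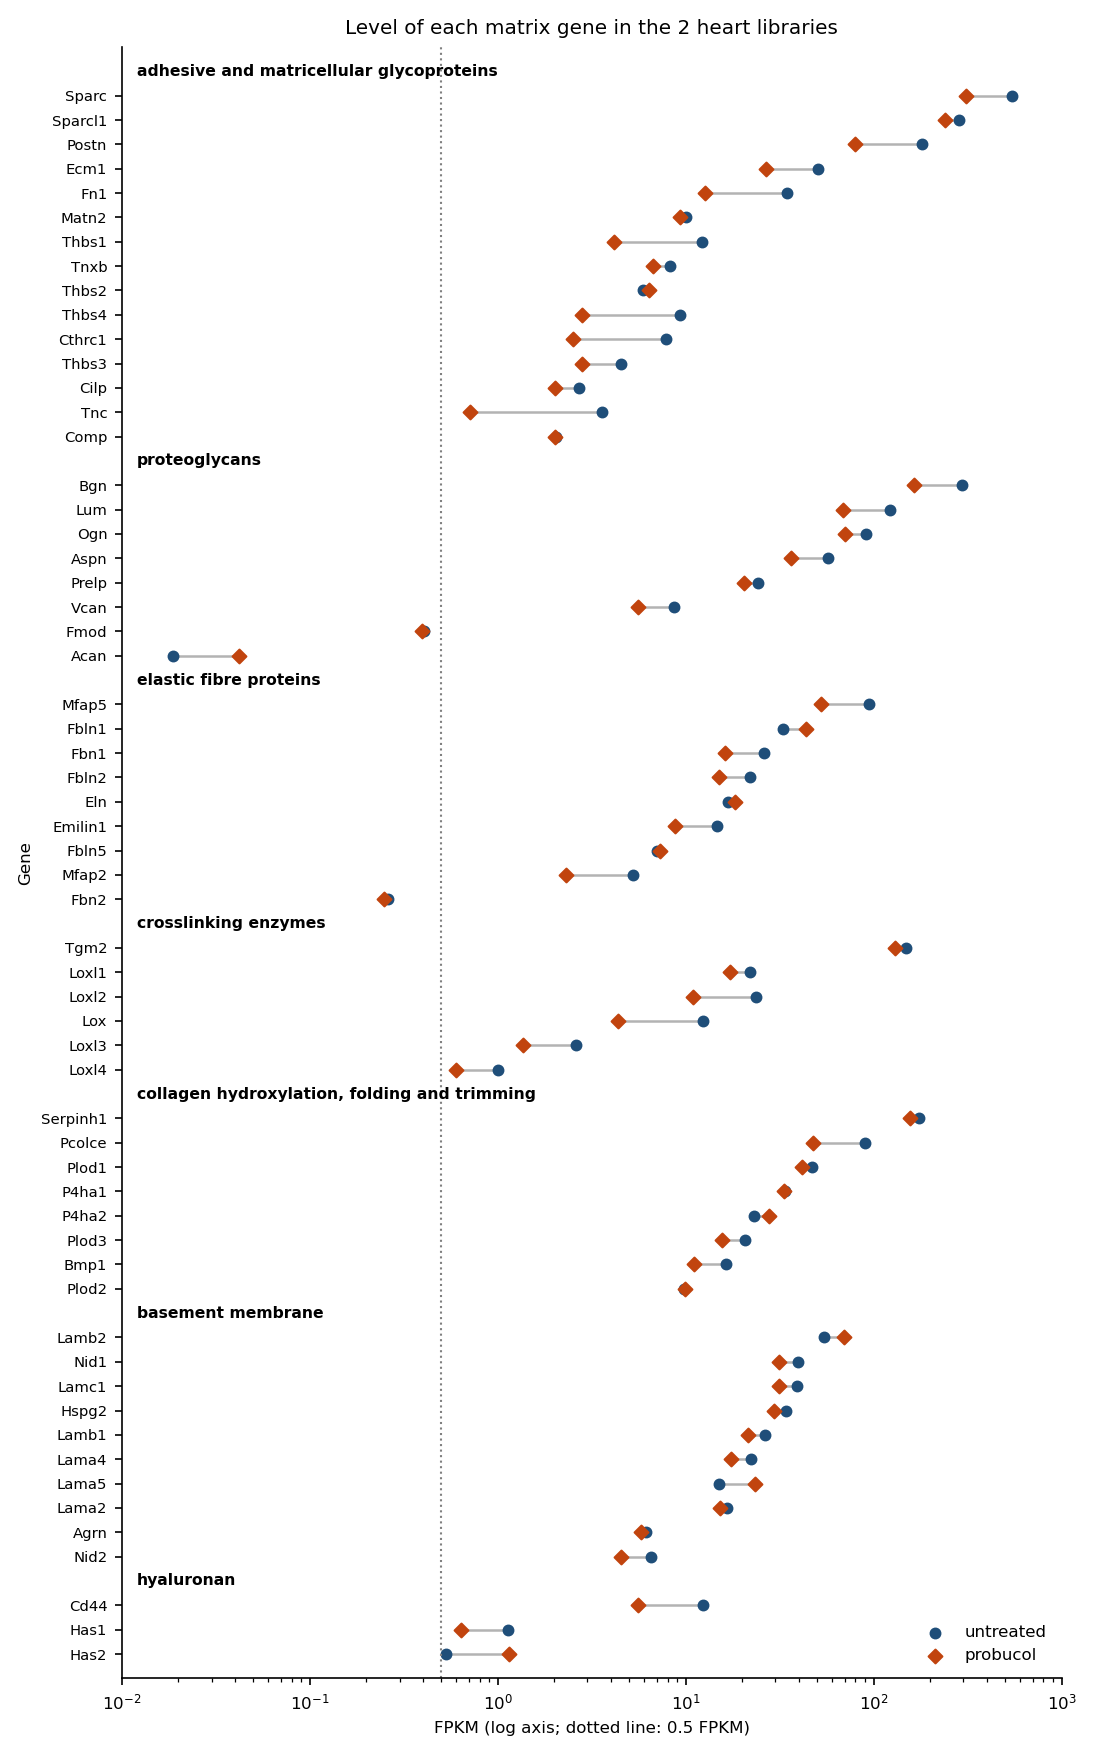
FPKM of each of the 59 genes in the untreated library (circles) and the probucol library (diamonds), on a log axis and grouped by role; the dotted line marks 0.5 FPKM. Sparc has the highest level in both libraries, and the gap between the symbols is wide for Tnc, Thbs4, Thbs1 and Cthrc1 and narrow for most basement membrane genes.

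The libraries as a whole differed in their makeup. The 12 cardiomyocyte markers all had a log2 ratio above 0 (median 0.46), and their most abundant gene, Myl2, had 22203 against 14735 FPKM. The 12 macrophage markers were all at least 1.5-fold lower (median -1.56), their summed level being 1113 FPKM with probucol and 3667 FPKM without. Fibroblast markers had a median of -0.52, with 5 of 11 at least 1.5-fold lower and summed levels of 1781 and 2525 FPKM. Of these 11, 4 are matrix genes themselves (Dcn, Col1a2, Mgp and Dpt). The other 7 had a median of -0.20, with 4 below 0. Their summed level was 619 FPKM with probucol and 522 FPKM without, mostly from Gsn (449 against 342 FPKM). Markers of activated fibroblasts and myofibroblasts had -0.20 (2 of 9 lower), of smooth muscle and pericytes -0.08, and of endothelium 0.03. The erythroid markers were higher with probucol (4 of 4 measured). The measured platelet markers were split, Gp9, Ppbp and Itga2b being higher and Gp1ba (-0.18), Treml1 (-0.14) and Pf4 (-1.04) below 0. Macrophages can also carry Pf4. Of 8 epicardial and 10 valve, tendon and cartilage markers, which could mark other sources of matrix, 2 each were measured (medians -0.65 and 0.12), Upk1b and Tnmd being listed at 0 in both libraries. The 6 neutrophil markers were split, S100a8, S100a9 and Retnlg lying between 0.49 and 0.88 and Mmp8, Cxcr2 and Csf3r between -0.79 and -1.11. The atrial markers were also uneven, with Nppa at 1565 against 4005 FPKM (-1.36) and Clu at -0.62, Myl4 and Stard10 above 0, and Myl7 and Bmp10 at 0 in both libraries. Of the other lists, Schwann cell markers had a median of 0.02, lymphocyte markers had -1.24 from 2 measured genes, and adipocyte (0.38, 2 measured) and skeletal muscle markers (0.71, 3 measured) lay above it. In such bulk tissue fewer cells of a type and less RNA per cell cannot be told apart, and the part that cell makeup has in the differences below was not tested.

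Promoters are shown for 3 of the lowest genes, Tnc, Thbs4 and Postn, and for 2 genes that were not lower, Thbs2 and Lama5, so that sequences of genes that moved differently can be compared. They are RefSeq windows of 250 bases before and 50 bases after the start site, 5′ to 3′ on the gene's strand, in GRCm38.p6. The windows are chr4:64046966-64047265 (minus strand) for Tnc, chr13:92794769-92795068 (minus) for Thbs4, chr3:54360857-54361156 (plus) for Postn, chr17:14694213-14694512 (minus) for Thbs2 and chr2:180225810-180226109 (minus) for Lama5. Capitals mark matches, on either strand, to the TATA motif TATAAA, the AP-1 motif TGANTCA, the TEAD motif GGAATG, the CArG box of serum response factor and the GC box core GGGCGG.
Tnc: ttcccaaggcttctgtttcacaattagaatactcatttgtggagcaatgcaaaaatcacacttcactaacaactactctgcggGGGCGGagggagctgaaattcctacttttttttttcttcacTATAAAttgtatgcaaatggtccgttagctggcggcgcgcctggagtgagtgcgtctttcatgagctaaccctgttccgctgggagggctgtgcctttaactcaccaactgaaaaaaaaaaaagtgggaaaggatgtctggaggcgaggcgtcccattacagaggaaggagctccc
Thbs4: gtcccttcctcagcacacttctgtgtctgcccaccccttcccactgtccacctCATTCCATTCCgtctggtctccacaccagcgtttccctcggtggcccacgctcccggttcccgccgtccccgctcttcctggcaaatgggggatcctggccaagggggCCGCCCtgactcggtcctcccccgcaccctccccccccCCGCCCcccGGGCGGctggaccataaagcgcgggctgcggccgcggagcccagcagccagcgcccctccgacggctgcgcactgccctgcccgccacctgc
Postn: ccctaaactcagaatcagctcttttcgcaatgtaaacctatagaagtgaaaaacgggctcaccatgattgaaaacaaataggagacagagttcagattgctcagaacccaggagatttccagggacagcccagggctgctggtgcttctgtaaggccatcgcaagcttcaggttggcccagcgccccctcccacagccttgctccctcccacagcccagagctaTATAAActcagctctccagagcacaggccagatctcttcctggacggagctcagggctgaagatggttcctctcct
Thbs2: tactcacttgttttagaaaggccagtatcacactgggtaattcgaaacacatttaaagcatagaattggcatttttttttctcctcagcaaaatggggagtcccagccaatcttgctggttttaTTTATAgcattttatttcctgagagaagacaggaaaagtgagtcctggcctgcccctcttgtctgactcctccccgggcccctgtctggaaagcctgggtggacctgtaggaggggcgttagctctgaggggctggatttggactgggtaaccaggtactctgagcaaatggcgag
Lama5: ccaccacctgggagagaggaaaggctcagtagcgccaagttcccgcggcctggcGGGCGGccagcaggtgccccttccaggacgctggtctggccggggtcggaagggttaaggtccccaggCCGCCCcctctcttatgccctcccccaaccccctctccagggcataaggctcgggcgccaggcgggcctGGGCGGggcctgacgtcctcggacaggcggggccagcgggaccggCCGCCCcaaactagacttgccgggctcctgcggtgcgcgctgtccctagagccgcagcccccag

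The Tnc and Thbs2 windows each hold a TATA match 126 bases before the start site, on the gene's strand in Tnc and on the other strand in Thbs2. Tnc was the lowest gene of the list and Thbs2 was nearly even. Postn has TATAAA at 26 bases before its start, Thbs4 has 3 GC box matches and 2 overlapping TEAD matches, and Lama5 has 4 GC box matches. Promoters of chromosome 18, where Lox and Fbn2 lie, were left out of all counts that follow. Over the 38 genes of the list with a promoter window, TATAAA was found in 8. It was found in 15.7% of 27025 genes with windows of the same length, any window of a gene counting. These 27025 genes were taken whether or not they were measured here. Shares among measured genes alone were not computed, so a gap between the list and all genes may not be particular to matrix genes. GGGCGG was found in 25 of the 38, against 38.2%, in 10 of the 14 genes with a promoter that were at least 1.5-fold lower and in 14 of the 22 other measured ones. TGANTCA was found in 2 (Ecm1 and Tnxb; 8.97% of all genes), GGAATG in 5 (16.6%) and the CArG box in 1, Lama2 (1.81%). A match is only a description of the letters in the window, and a missing one says nothing of a factor that may act elsewhere.

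Among the adhesive and matricellular glycoproteins, 9 of 15 passed the 1.5-fold limit as lower and 0 as higher, and the median log2 ratio was -0.81. Tenascin C (Tnc), a large glycoprotein of wounds and remodelling borders (chr4:63959785-64047015), was the lowest of all 56 genes, at 0.715 FPKM with probucol against 3.59 FPKM. Its log2 ratio was -1.75, and at least 33 against 185 fragments gave a ratio between 0.133 and 0.289. Tnxb, the tenascin of loose connective tissue, was lower by a smaller amount, within 1.5-fold, with 6.69 against 8.22 FPKM (-0.28). The ratio interval of Tnxb, 0.714 to 0.925, did not overlap that of Tnc.

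Fibronectin (Fn1), the adhesive glycoprotein on which later matrix is assembled (chr1:71585520-71653200), had 12.7 against 34.4 FPKM, a log2 ratio of -1.40. Periostin (Postn), a product of activated fibroblasts that aids collagen assembly, had 79.5 against 181 FPKM (log2 ratio -1.18, ratio between 0.414 and 0.466). Cthrc1, a secreted protein of activated fibroblasts, had 2.50 against 7.84 FPKM, from at least 16 against 56 fragments. Each of these was more than 2-fold lower, whether it was abundant, as Postn, or low, as Cthrc1. Ecm1, a glycoprotein that binds perlecan and fibulins, had 26.6 against 50.8 FPKM (-0.92).

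The SPARC pair differed in the same direction by unequal amounts. Sparc, a collagen-binding glycoprotein needed for the processing of procollagen, was the most abundant gene of the list, with 309 FPKM with probucol and 543 FPKM without (log2 ratio -0.81, ratio between 0.547 and 0.591). Its relative Sparcl1, which is rich in vessels, had 238 against 286 FPKM (-0.26, ratio between 0.802 and 0.870). The counting intervals of the ratios of Sparc and Sparcl1 did not overlap. Sparc was thus 1.90 times as abundant as Sparcl1 in the untreated library and 1.29 times in the probucol library.

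The thrombospondins, trimeric or pentameric glycoproteins that bind growth factors and calcium, divided by member. Thbs4, which is induced by load in the heart (chr13:92751590-92794818), had 2.79 against 9.30 FPKM, a log2 ratio of -1.57 from 56 against 208 fragments. Thbs1, an activator of latent TGF-beta that platelets and macrophages also carry (chr2:118111876-118127133), had 4.14 against 12.2 FPKM, a log2 ratio of -1.45. Thbs3 had 2.81 against 4.50 FPKM (-0.59), just past the 1.5-fold limit, and its exons overlap those of Mtx1 on the other strand. Thbs2, the closest relative of Thbs1 (chr17:14665500-14694235), went the other way by a small amount, with 6.38 against 5.91 FPKM and a ratio interval of 0.902 to 1.29, which spans 1. Comp, the thrombospondin of cartilage and tendon, had 2.02 against 2.05 FPKM. As a result Thbs2 made up 35.2% of the family's summed FPKM with probucol and 17.4% without, and Thbs4 made up 15.4% and 27.4%. Of the remaining glycoproteins Cilp, a fibroblast protein of the failing heart, had 2.01 against 2.72 FPKM and Matn2, a filament-forming matrilin, 9.30 against 10.1 FPKM, both with intervals that include 1.

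**Figure D2:**
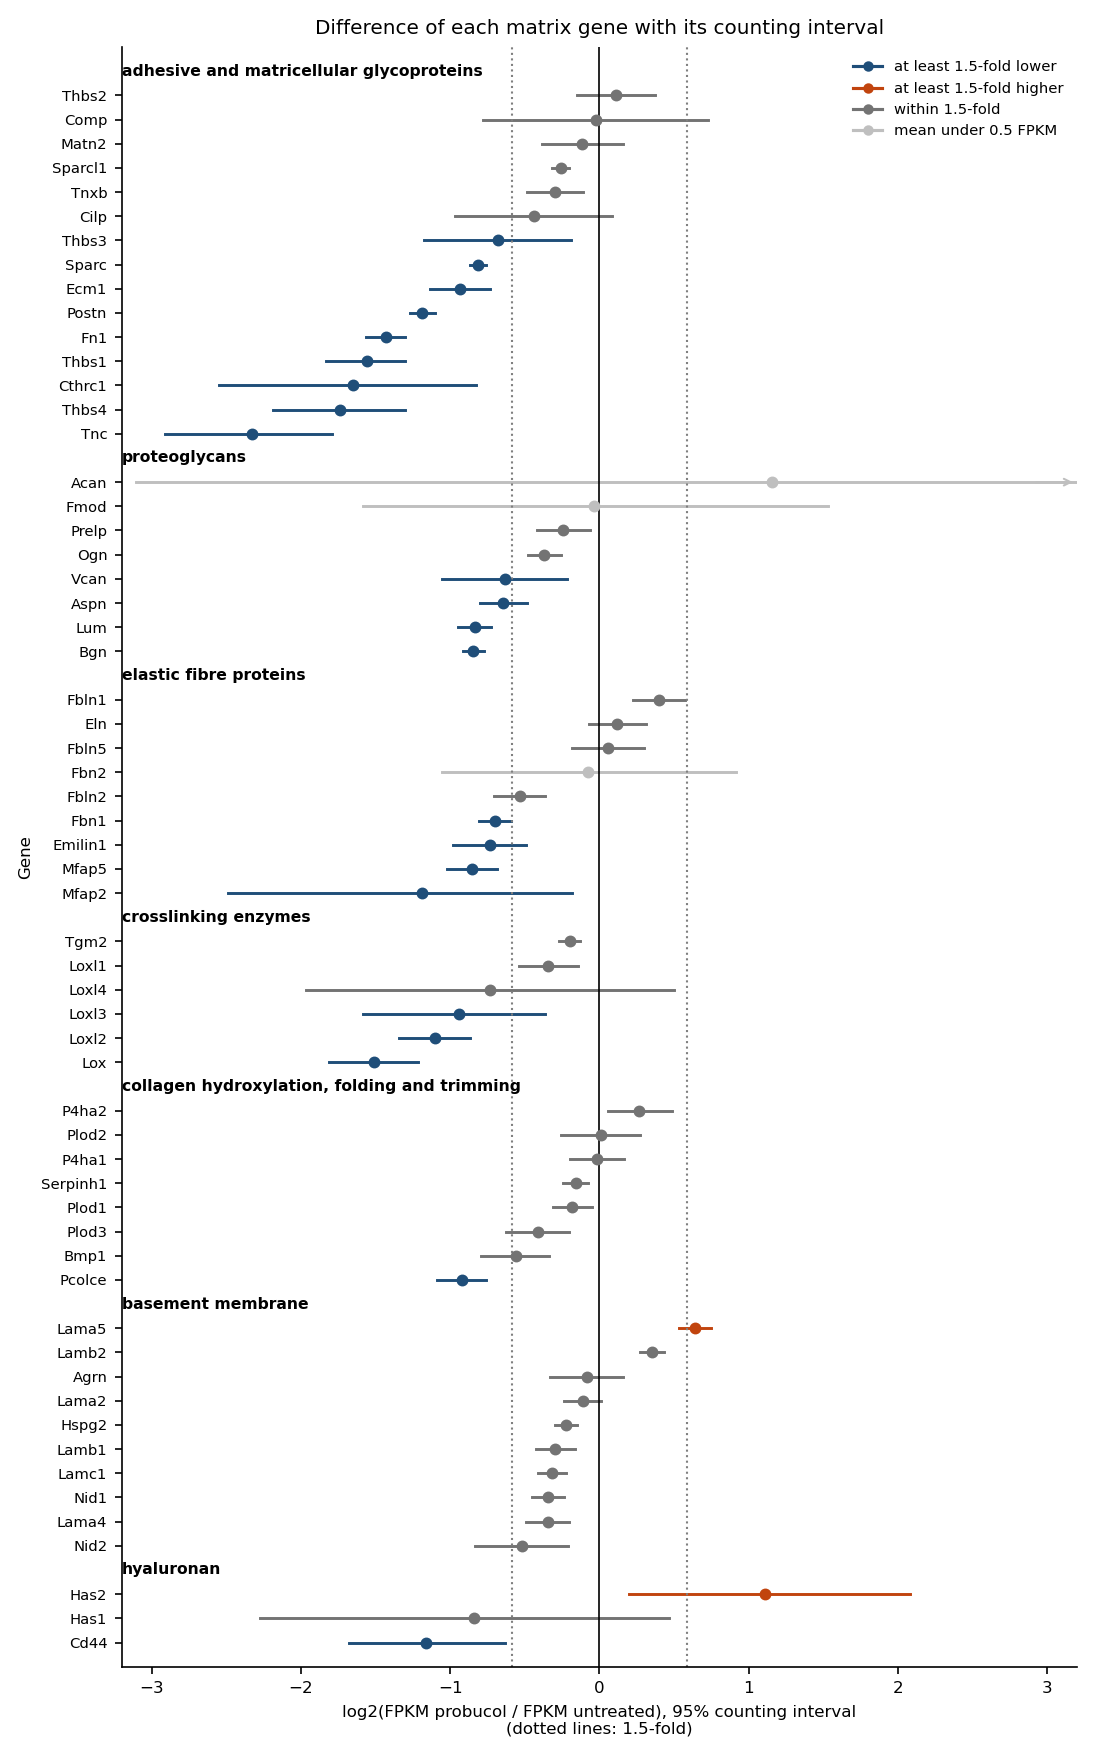
log2 of the FPKM ratio (probucol over untreated, no pseudocount) of each of the 59 genes, with its 95% counting interval, grouped by role and coloured by whether the gene passed 1.5-fold on the scale with the pseudocount. Tnc, Thbs4, Cthrc1 and Thbs1 lie far to the left with Lox and Fn1, while most basement membrane genes lie between the dotted 1.5-fold lines.

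Of the 5 measured small leucine-rich proteoglycans of the list, 3 were at least 1.5-fold lower with probucol (Bgn, Lum and Aspn), and Ogn and Prelp were not. Bgn, which encodes biglycan (chrX:73483602-73495933), had 164 against 295 FPKM, a log2 ratio of -0.84. Lum, which encodes lumican, had 68.8 against 123 FPKM (-0.83), and its ratio interval of 0.519 to 0.604 overlapped that of Bgn, 0.529 to 0.584. Aspn, which encodes asporin, had 36.5 against 57.0 FPKM (-0.64). Ogn, which encodes osteoglycin or mimecan, had 70.4 against 91.0 FPKM (-0.37), and Prelp had 20.4 against 24.1 FPKM (-0.24). Fmod, which encodes fibromodulin, was not measured, with 0.394 against 0.404 FPKM from 8 and 9 fragments.

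Apart from Bgn, these proteoglycan genes lie in 3 clusters, and neighbours did not share levels. On chromosome 13, Aspn and Ogn lie within 119.7 kb with Omd and Ecm2, which had 2.52 against 2.17 FPKM and 9.26 against 9.13 FPKM. Along the chromosome the order is Ecm2, Aspn, Omd and Ogn. The genes with log2 ratios below 0 thus alternated with those just above 0 (Ecm2 0.02, Omd 0.18). On chromosome 10, Lum lies beside Dcn, the gene of decorin, with 547 against 786 FPKM (-0.52), and beside Kera and Epyc, which were listed at 0 in both libraries. On chromosome 1, Prelp (chr1:133910304-133921414) lies near Fmod (chr1:134037254-134048277), at over 50 times its level in both libraries.

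Of the large hyaluronan-binding proteoglycans Vcan and Acan, only Vcan was measured. Vcan, which encodes versican, a hyaluronan-binding proteoglycan of provisional matrix, had 5.57 against 8.62 FPKM, a log2 ratio of -0.59 that just passed the limit. Acan, the aggrecan of cartilage, had 0.0418 against 0.0187 FPKM, which rest on at least 2 and 1 fragments, too few to detect a difference.

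The elastic fibre genes differed among themselves, with 4 of 8 measured genes at least 1.5-fold lower, 0 higher and 3 above 0. Within the list, these 4 were genes of microfibrils and their surface. Fbn1, which encodes fibrillin 1, had 16.1 against 26.2 FPKM (-0.68). Mfap5, a microfibril-associated glycoprotein, had 52.2 against 94.2 FPKM (-0.85), and Mfap2, of the same class, had 2.30 against 5.22 FPKM (-1.03) from at least 10 against 27 fragments. Emilin1, a glycoprotein at the interface of elastin and microfibrils, had 8.76 against 14.6 FPKM (-0.70). The elastin core and 2 fibulins of the list did not share this. Eln, which encodes elastin (chr5:134702593-134747323), had 18.3 against 16.8 FPKM with a ratio between 0.951 and 1.24, and Fbln5, which tethers elastin to cells, had a log2 ratio of 0.05 at 7.28 FPKM with probucol. Within 1.5-fold, Fbln1 had 43.6 against 33.0 FPKM (0.39, ratio between 1.17 and 1.49) and Fbln2 had 15.1 against 21.9 FPKM (-0.52). Fbln1 thus made up 66.0% of the summed FPKM of the 3 listed fibulins with probucol and 53.3% without. The sum of these 3 was 66.0 against 61.9 FPKM. Fibulin genes outside the list were not in that sum, namely Efemp1 (4.58 against 6.52 FPKM), Efemp2 (7.76 against 16.0 FPKM) and Fbln7 (0.498 against 0.397 FPKM). Fbn2, the fibrillin of development, was not measured, at 0.247 against 0.261 FPKM.

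Of the 5 lysyl oxidases, copper enzymes that start the crosslinks of collagen and elastin, 3 were at least 1.5-fold lower (Lox, Loxl2 and Loxl3). Lox, the founding member, had 4.34 against 12.4 FPKM (log2 ratio -1.41, ratio between 0.285 and 0.431). Loxl2, which also acts on basement membrane collagen (chr14:69609068-69695834), had 11.0 against 23.5 FPKM (-1.07, ratio between 0.394 and 0.549). Loxl3 had 1.36 against 2.61 FPKM (-0.74), and its exons overlap those of Htra2 on the other strand. Loxl1, which is tied to elastin, had 17.3 against 21.9 FPKM (-0.33), and Loxl4 had 0.600 against 0.999 FPKM (-0.45) from at least 10 and 18 fragments, with a ratio interval of 0.256 to 1.42, which spans 1. Loxl1 was second to Loxl2 in the untreated library and the most abundant of the 5 in the probucol library, while the share of Lox was 12.6% with probucol and 20.2% without. Tgm2, the tissue transglutaminase, which crosslinks fibronectin and is abundant in endothelium, stood at 130 against 149 FPKM (-0.20). Other genes of the list also share exon bases with a gene on the other strand, among them Tgm2 (Rprd1b), Plod3 (Znhit1) and Nid2 (Rtraf). Pcolce overlaps Fbxo24 on the same strand.

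The genes of the list that act on collagen chains inside the cell had log2 ratios between -0.40 and 0.26, all within 1.5-fold. Of the 8 genes of hydroxylation, folding and trimming, 1 was at least 1.5-fold lower, near the 12.0% of all measured genes. The median log2 ratio of the 8 was -0.17. P4ha1 and P4ha2, the catalytic subunits of prolyl 4-hydroxylase, had 33.3 against 33.6 FPKM and 27.8 against 23.1 FPKM. The lysyl hydroxylases Plod1 (41.6 against 47.2 FPKM), Plod2 (9.89 against 9.83 FPKM) and Plod3 (15.5 against 20.7 FPKM) ranged from 0.01 to -0.40. Serpinh1, the collagen chaperone HSP47 (chr7:99345376-99353239), had 156 against 175 FPKM, a log2 ratio of -0.16. The genes of the list that act outside the cell, Bmp1 and Pcolce, had lower log2 ratios than these. Bmp1, the procollagen C-proteinase, had 11.1 against 16.4 FPKM (-0.54), within 1.5-fold, and Pcolce, the secreted enhancer of that proteinase (chr5:137605103-137613784), had 47.6 against 90.1 FPKM (-0.91, ratio between 0.470 and 0.590). This order did not hold for genes outside the list. Those acting outside the cell included Pcolce2 (-0.20), Adamts2 (-0.46) and Adamts3 (0.20), and those acting inside it ranged from P4ha3 (-0.67) and P3h3 (-0.67) to Colgalt2 (0.54).

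The basement membrane genes lay mostly below 0 by small amounts, with a median of -0.25. Ratio intervals lay wholly below 1 for Lama4, Lamb1, Lamc1, Nid1, Nid2 and Hspg2, and wholly above 1 for Lama5 and Lamb2. Among all measured genes with a fragment estimate these shares were 19.5% and 20.0%. Of the 10 genes 0 were lower by 1.5-fold or more, against 12.0% of all measured genes, too few genes for that gap to mean much. Lama5, a laminin alpha chain of vessels and epithelia (chr2:180176373-180225859), was the gene past 1.5-fold, with 23.4 FPKM with probucol and 15.0 FPKM without, a log2 ratio of 0.62 from 1751 against 1253 fragments. Lamb2, a beta chain of muscle and vessel laminins (chr9:108479736-108490530), was the other gene above 0, with 69.7 against 54.6 FPKM (0.35, ratio between 1.21 and 1.35). Lama4, the alpha chain of endothelial and muscle laminins, was below 0, with 17.4 against 22.2 FPKM (-0.34), as were Lamb1 (21.5 against 26.4 FPKM, -0.29) and the shared gamma chain Lamc1 (31.5 against 39.3 FPKM, -0.32). Lama2, the alpha chain of muscle laminin, had 15.2 against 16.5 FPKM with a ratio between 0.848 and 1.01. The summed alpha chains of the list were therefore about level, 56.1 against 53.7 FPKM, with Lama5 at 41.7% of them with probucol and 27.9% without.

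None of the 4 linkers and proteoglycans of the basement membrane passed 1.5-fold (0 of 4), where 12.0% of all measured genes were lower and 5.52% higher. All 4 lay below 0, as did 49.1% of all measured genes. Nid1, which joins laminin to type IV collagen, had 31.2 against 39.6 FPKM (-0.34), and Nid2 had 4.54 against 6.50 FPKM (-0.48). Hspg2, which encodes perlecan, had 29.4 against 34.3 FPKM (-0.22), and Agrn, which encodes agrin, had 5.77 against 6.12 FPKM with a ratio between 0.794 and 1.11, which includes 1.

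**Figure D3:**
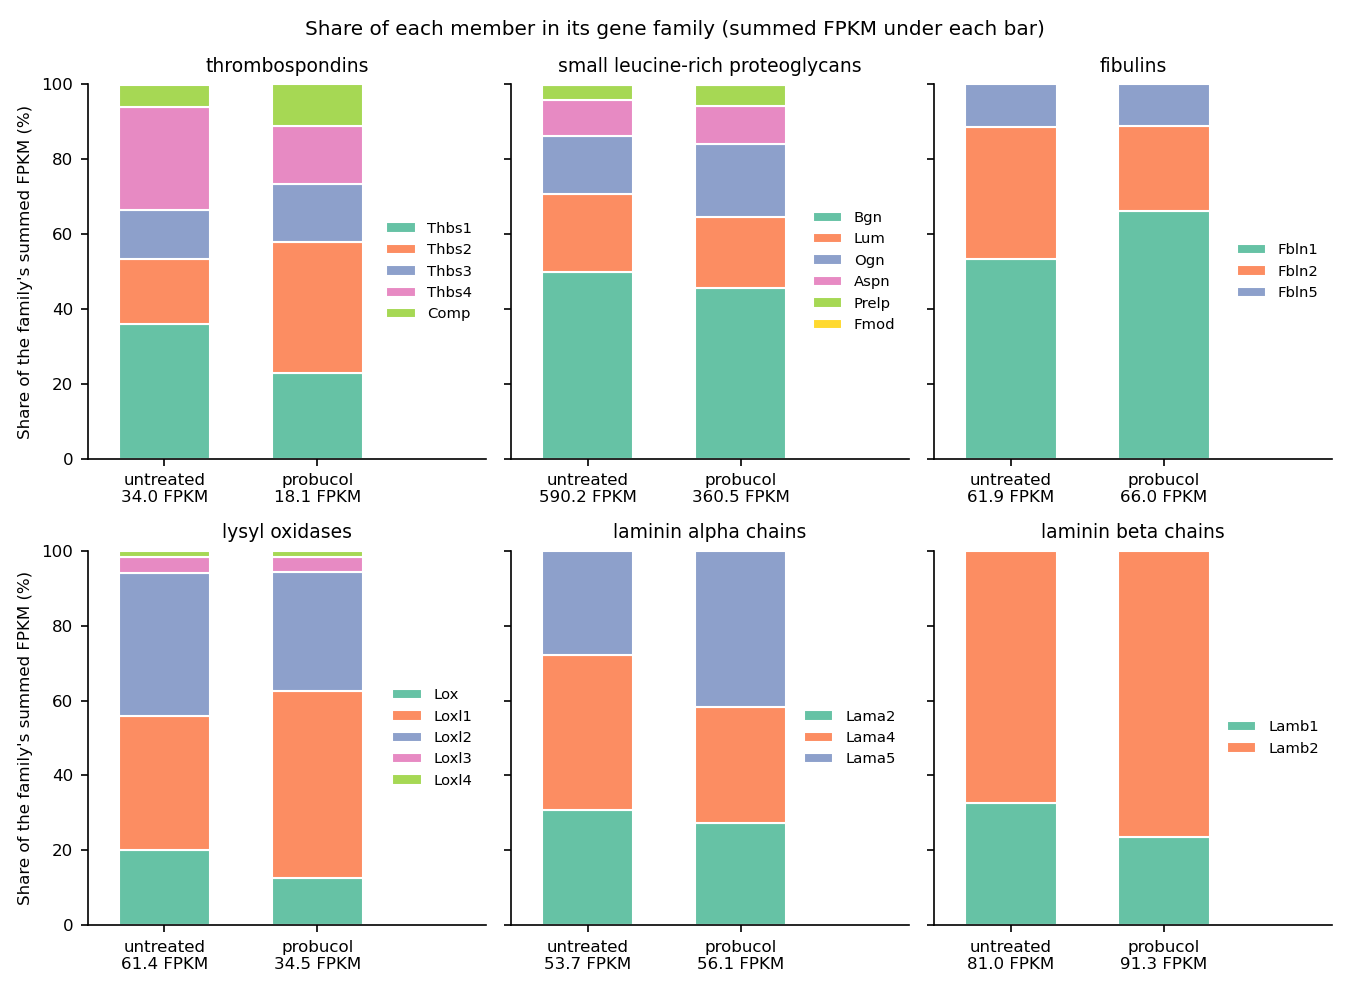
Share of each gene in the summed FPKM of the listed genes of its family, in percent, for the untreated and the probucol library, with the sum under each bar. Family members outside the list, such as Dcn and Efemp2, are not in the sums. Thbs2, Fbln1, Loxl1, Lama5 and Lamb2 hold larger shares in the probucol library, and Thbs1, Thbs4, Fbln2, Lox and Lama4 smaller ones.

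The 3 hyaluronan genes went in different directions. Cd44, the hyaluronan receptor, which leukocytes and activated fibroblasts carry (chr2:102811141-102901665), had 5.55 against 12.4 FPKM, a log2 ratio of -1.09. Has2, the main hyaluronan synthase of mesenchymal cells (chr15:56665627-56694539), had 1.15 against 0.531 FPKM from 31 against 16 fragments, and its ratio interval was 1.15 to 4.23. Has1, another synthase, had 0.634 against 1.14 FPKM from 8 against 16 fragments, and its ratio interval of 0.207 to 1.38 spans 1. Has2 was the more abundant synthase with probucol and Has1 without, on few fragments. The antisense gene Has2os, which overlaps Has2, had 0.484 FPKM without probucol and was listed at 0 with it.

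Other matrix genes gave a frame for these values, beside the 12.0% of all measured genes that were at least 1.5-fold lower. All 6 measured fibrillar collagen chains passed 1.5-fold as lower (median -0.89), Col3a1 being lowest at -1.41. Of 9 measured chains of basement membrane and microfibrillar collagen, 5 were at least 1.5-fold lower (median -0.61), led by Col18a1 at -0.91. Of 36 other matrix glycoproteins 10 were lower and 1, Egflam, higher (median -0.33), with Mgp, the most abundant, at 450 against 932 FPKM. Other proteoglycans had a median of -0.46 (4 of 15 lower), with Prg4, the gene of lubricin, lowest at 4.29 against 18.4 FPKM. Other collagen-modifying and hyaluronan genes had -0.38 (4 of 20 lower), with the coagulation factor F13a1, which macrophages carry, lowest at -1.41. Of 17 TGF-beta signalling genes, which control many matrix genes, 5 were lower and 0 higher (median -0.19), with Inhba lowest at -1.61 and Tgfb3 highest at 0.34.

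**Figure D4:**
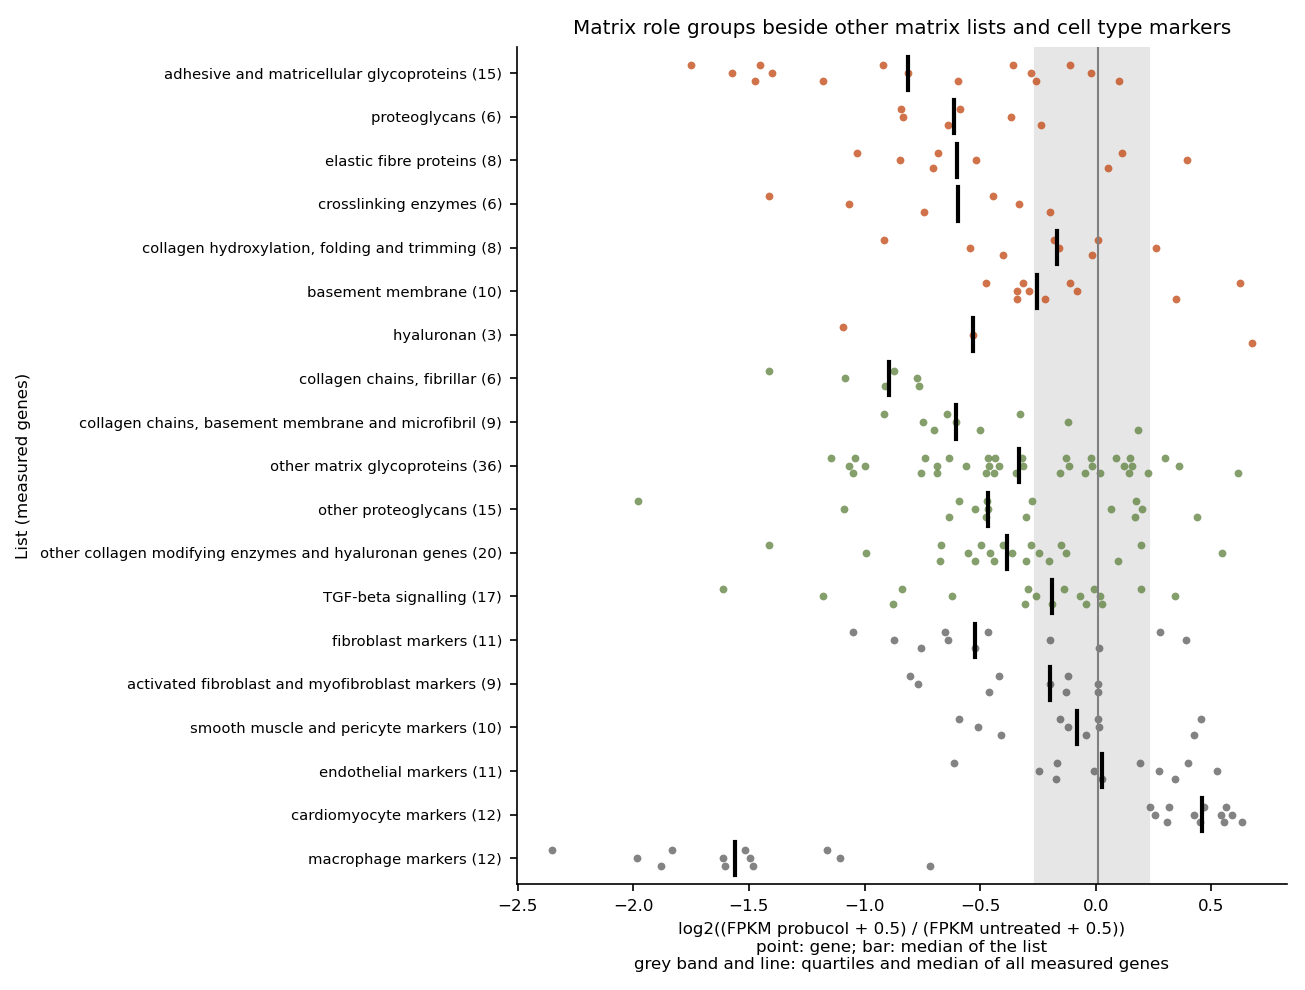
log2 ratio of every measured gene in the 7 role groups, 6 other matrix and signalling lists and 6 cell type marker lists, with the median of each list as a black bar and the quartiles of all measured genes as a grey band. The medians of the glycoproteins (-0.81) and fibrillar collagens (-0.89) lie left of those of basement membrane (-0.25) and hydroxylation genes (-0.17), and the fibroblast markers (-0.52) include the matrix genes Dcn, Col1a2, Mgp and Dpt.

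Set against fibroblast markers instead of the deposited scale, the counts depended on which markers served as the reference, in comparisons chosen after the values were seen. The 7 fibroblast markers that encode no matrix protein (Pdgfra, Tcf21, Pdgfrl, Gsn, Dpep1, Scara5 and Pi16) had a median of -0.20. With that median at 0, 16 of the 56 genes were at least 1.5-fold lower, against 7.91% of all measured genes, and 3 were higher (Has2, Lama5 and Fbln1), against 13.2%. All 11 markers had a median of -0.52, which is the value of Dcn, itself a matrix gene. With that median at 0, 7 genes were at least 1.5-fold lower (Tnc, Thbs4, Cthrc1, Thbs1, Lox, Fn1 and Postn), against 4.14% of all measured genes, and 7 were higher, against 43.8%. Such a reference moves every gene by the same amount, so it changes the counts and not the order of the genes. The log2 ratios of the 56 genes had no clear relation to level (Spearman's rho 0.06 with mean FPKM) and a weak one to transcript length (0.27), across genes that share both libraries and are not independent.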

How the data were processed

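Gene expression was measured by RNA-seq in 2 mouse heart libraries, 1 treated with probucol and 1 untreated, grouped by the treatment label. The authors deposited FPKM, 1 value per gene symbol and library, per the file headers. Tools named in the submitters' processing notes are Cuffdiff 2.2.1, TopHat2 2.1.1 and Bowtie2, with the build mm10. The sources used here do not give their roles, the annotation, the use of strand or any scaling between libraries. Library kits were stranded, per the labels' protocols.

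The log2 ratio used a pseudocount of 0.5 FPKM, which understates differences of low genes, and no rescaling. What 1 fragment is worth was found from low values of genes with 1 transcript, with 210 bases subtracted from the length. At that setting 75.8% of low values with probucol and 72.9% without came within 0.1 of a whole fragment. A count of 0 allows up to 3 fragments. Gene positions and lengths are from GENCODE M21 (GRCm38, the same build) and promoters from RefSeq, the window nearest the GENCODE gene start being shown where a gene has several. The calculation was tested on simulated data. Analysis used Python 3.11.15, numpy 2.4.6, pandas 2.3.3 and scipy 1.17.1.

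The 59 genes, their 7 role groups, 6 context lists and 16 marker lists were chosen with earlier results of these data known. Any of the 59 genes could be named, and of other lists the highest and lowest log2 ratio and the most abundant genes. Other genes are named as neighbours or overlapping genes, or were chosen after their values were seen. Settings tried were the pseudocount, the filter and the scaling between libraries.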

Additional observations from a re-analysis of the deposited data

How the results depend on the processing

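With 1 library per group no left-out replicate could be tried, and no paired analysis was possible because each group has a single library. Under pseudocounts of 0.1 and 1 FPKM, filters from none to 5 FPKM and 3 scalings of all genes, the number of genes at least 1.5-fold lower stayed between 18 and 24 and the median log2 ratio between -0.34 and -0.44. The number at least 1.5-fold higher was 1 with a pseudocount of 1 FPKM, with filters of 1 and 5 FPKM and with equal sums without the 50 most abundant genes. Of these settings, the equal sums left Has2 past the limit and the other 3 left Lama5. Setting the median of the cardiomyocyte markers to 0 moved all genes by -0.46 and gave 42 genes lower (36.1% of all measured genes), 0 higher (0.924%) and a median of -0.85, with Lama5 and Has2 the only genes above 0. Setting the median of all 11 fibroblast markers to 0 moved all genes by 0.52 and gave 7 lower (4.14%), 7 higher (43.8%) and a median of 0.14. Of those 11, 4 are matrix genes, and with the other 7 as the reference all genes moved by 0.20, with 16 lower (7.91%), 3 higher (13.2%) and a median of -0.19. Both fibroblast references were chosen after seeing the data. These shifts follow from the construction of the scaling, so the direction of genes within about 1.5-fold depends on the reference chosen. Of the 24 genes past 1.5-fold, 6 were past it in all 11 alternatives (Fn1, Postn, Thbs1, Thbs4, Cthrc1 and Lox), and Tnc was past it in each except the filter of 5 FPKM, which it did not pass. None of the 24 changed sign where measured. Depth limits Acan, Fmod, Fbn2, Loxl4, Has1, Has2 and Mfap2, which have under 50 fragments in both libraries together.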
